A study of Homo sapiens with 2 samples.

Results

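The interleukin-1 family and its receptors are described here by 8 genes: the ligands IL1A, IL1B, IL18 and IL33, the receptor antagonist IL1RN, the receptor chains IL1R1 and IL1RAP, and the receptor-associated kinase IRAK1. They were chosen by name, and all 17 probe sets annotated to them were taken, out of 19775 genes covered by probe sets with 1 gene. Total RNA of MDA-MB 231, an invasive human breast cancer cell line that lacks the estrogen receptor, was hybridised to Affymetrix arrays, 1 array per group. The vector group had been transfected with the plasmid pIRES2-EGFP alone, and the S100A7 group with the same plasmid carrying S100A7, a small calcium-binding protein also called psoriasin. Both groups were stable transfectants and grew in DMEM with 10% fetal bovine serum and penicillin-streptomycin. The labels do not say whether each was a single clone or a pool, and they give the confluence (70-80%) for the vector cells alone. The series asks which genes S100A7 regulates, with inflammatory pathways named in its title.

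Interleukin-1 alpha and beta bind the same receptor, IL1R1, which signals only after the accessory chain IL1RAP has joined it. The adaptor MYD88 and kinases of the IRAK family then relay the signal to NF-kB and to MAP kinases, which induce chemokines, cytokines and matrix-degrading enzymes. IL1RN occupies IL1R1 without recruiting IL1RAP and so blocks both ligands. Interleukin-1 alpha is active as a precursor and is known as an alarm signal of injured epithelium, whereas interleukin-1 beta and interleukin-18 need cleavage by caspase-1.

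Of the members, IL1A was 4.32-fold higher in S100A7 cells and IL1RAP was 2.51-fold lower, while IL1B was nearly equal on both arrays. The IL1A value is that of its brighter probe set, and the other was level (log2 ratio -0.020). The IL1RAP value came within 2-fold with the median over its probe sets (-0.81) and with a floor at the 70th percentile (-0.30). Both of these are minimum sizes set by a floor. The receptor chain IL1R1 and the kinase IRAK1 were lower by 1.56-fold and 1.60-fold. IL33 was below the floor used in place of a detection call, which was each array's 50th percentile (71.0 for vector and 69.0 for S100A7). A fold change with one side below the floor is a lower bound and is written "at least". Each group was a single array, so nothing was tested, and no difference has been set against the spread between cultures.

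The promoters of 3 members are shown, because IL1A and IL1RAP were the members past 2-fold and IL1B is the gene next to IL1A on chromosome 2. Each line holds the 250 bases before an annotated start, on the gene's own strand, from RefSeq on GRCh38.p14. The IL1A window lies at chr2:112784494-112784743 (minus strand), the IL1B window at chr2:112836780-112837029 (minus strand) and the IL1RAP window at chr3:190513835-190514084 (plus strand). Capitals mark the letters TGANTCA, the kind of site that AP-1 factors bind.
IL1A: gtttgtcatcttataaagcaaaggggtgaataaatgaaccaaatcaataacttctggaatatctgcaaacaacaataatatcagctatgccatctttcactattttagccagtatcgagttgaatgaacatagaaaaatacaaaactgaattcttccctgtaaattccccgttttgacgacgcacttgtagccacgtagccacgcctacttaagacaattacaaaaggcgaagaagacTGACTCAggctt
IL1B: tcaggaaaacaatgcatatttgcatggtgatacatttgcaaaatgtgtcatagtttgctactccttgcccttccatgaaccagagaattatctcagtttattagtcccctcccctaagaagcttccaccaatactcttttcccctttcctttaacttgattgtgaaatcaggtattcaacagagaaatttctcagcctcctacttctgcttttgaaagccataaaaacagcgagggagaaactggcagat
IL1RAP: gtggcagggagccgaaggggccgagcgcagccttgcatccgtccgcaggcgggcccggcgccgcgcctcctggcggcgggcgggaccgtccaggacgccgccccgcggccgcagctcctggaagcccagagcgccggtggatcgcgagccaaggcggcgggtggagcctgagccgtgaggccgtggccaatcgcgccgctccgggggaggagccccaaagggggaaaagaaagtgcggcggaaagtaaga
The IL1A window held 1 such site, starting 12 bases before the start, and the IL1B and IL1RAP windows held 0. An NF-kB-like motif (GGG, any 3 bases, then TTCC) and its narrower form (GGG, any 2 bases, then TTTCC) were in none of these 3 windows. Every match of the narrower form is also a match of the wider one. Both strands were searched, and TGANTCA matches on both strands at the same place, so a site was counted once. Among 35114 windows of 250 bases in the RefSeq table, 6.57% held TGANTCA, 5.67% the wider NF-kB-like motif and 1.73% the narrower. The G and C content was 37.6% for IL1A, 40% for IL1B and 74.8% for IL1RAP, against a median of 58.0% over all windows. The table held windows for 7 of the 8 members, 14 in all, and none for IL18. Among the windows not shown, the second of IL1A held 2 TGANTCA sites, one of them shared with the window above, the first of IL1RN held 1, and the third of IL1RN held the narrower NF-kB-like motif (gggtatttcc) starting 97 bases before its start. These matches describe letters and were not tied to binding of any factor.

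**Figure D1:**
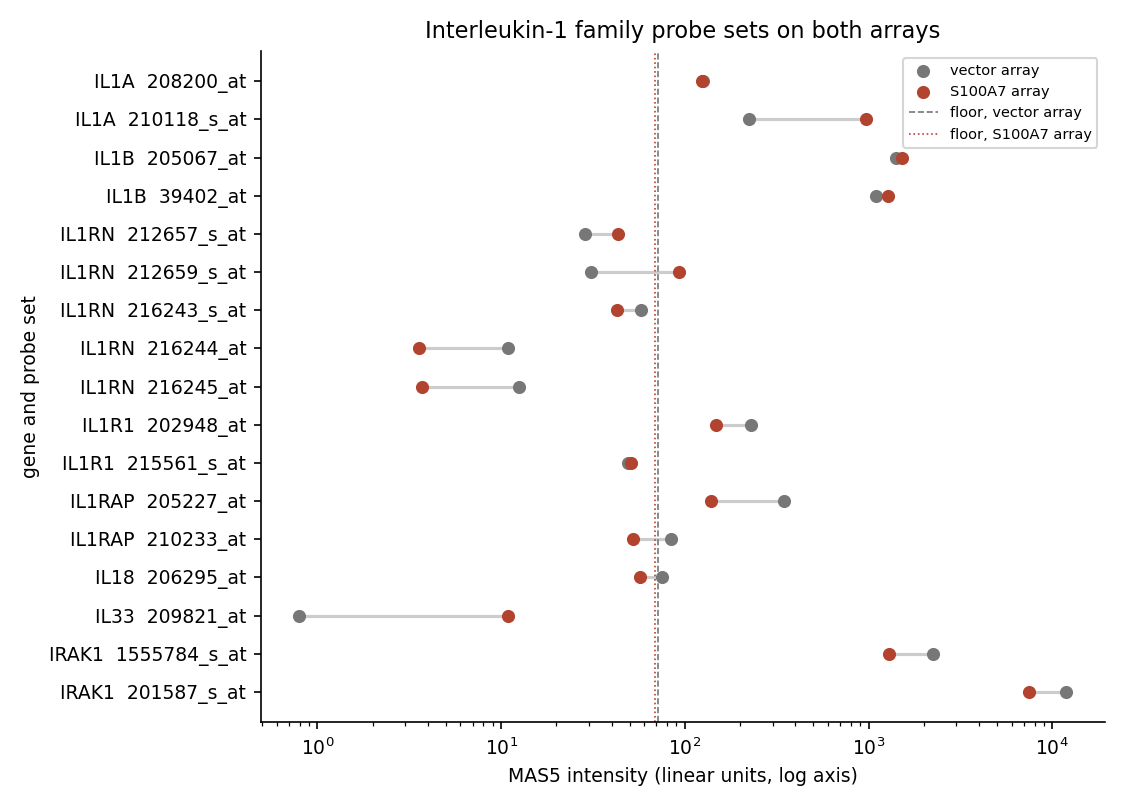
MAS5 intensity (linear units on a log axis) of each of the 17 member probe sets on the vector array (grey) and the S100A7 array (red), with each array's floor as a vertical line. One IL1A probe set read 223 for vector and 963 for S100A7 while the other read 126 and 124, and 6 probe sets, 4 of them of IL1RN, lay below the floor on both arrays.

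Among the ligands, IL1A was read by a pair of probe sets that disagreed. Probe set 210118_s_at read 222.6 for vector and 962.5 for S100A7, a log2 ratio of 2.11 (S100A7 over vector, as for every ratio here). Probe set 208200_at read 125.6 and 123.9, a log2 ratio of -0.020. In bulk RNA, more cells making a transcript and more of it per cell cannot be told apart. The brighter probe set was thus higher in the S100A7 array and the dimmer one was level. The level one was also nearer the floor, at 1.77 times the vector floor and 1.80 times the S100A7 floor, against 3.13 and 13.95 times for the other. The suffix _s_at marks probe sets that can match several transcripts. Which part of the IL1A transcript each probe set reads was not analysed here.

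IL1B, the secreted ligand made as an inactive precursor, was well above the floor. Its probe set 205067_at read 1418 for vector and 1516 for S100A7, a log2 ratio of 0.10. Its other probe set, 39402_at, read 1104 and 1279, a log2 ratio of 0.21. Both were slightly higher in S100A7 cells, and close to each other in ratio. The log2 ratio of IL1A exceeded that of IL1B by 2.02 on the brightest probe sets, which is a difference of changes and not of levels. On its other probe set, 208200_at, IL1A was at -0.020, below both IL1B probe sets.

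IL1RN, the natural antagonist of both ligands, was at the edge of what the arrays read. Of its 5 probe sets, 212659_s_at reached the floor, at 30.7 for vector and 93.0 for S100A7, at least 1.31-fold higher. The other 4 lay between 10.9 and 57.6 for vector and between 3.57 and 43.4 for S100A7, all below the floor, and no fold is given for them. The size for IL1RN was therefore set by the floor: its log2 ratio was at least 0.39, and was 1.60, past 2-fold, with the floor at the 30th percentile or with none.

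IL18, a ligand that drives interferon-gamma release from lymphocytes, had 1 probe set, which read 75.3 for vector and 57.3 for S100A7, at least 1.09-fold lower. Both values were close to the floor. IL33, a nuclear alarm cytokine that acts through the receptor IL1RL1, read 0.796 and 10.9 on its 1 probe set. Both IL33 values were far below the floor, so no fold is given.

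The receptor chains were lower in the S100A7 array. IL1RAP, which serves the receptors for interleukin-1, interleukin-33 and interleukin-36, read 348.0 for vector and 138.5 for S100A7 on probe set 205227_at, a log2 ratio of -1.33. Its other probe set, 210233_at, read 83.96 and 51.9, at least 1.22-fold lower, so both were lower but only the first reached 2-fold at this floor. The median over both, a log2 ratio of -0.81, was within 2-fold, but it counts the lower bound of 210233_at. The value with the floor at the 70th percentile (-0.30) was within 2-fold too, but its S100A7 value does not reach that floor. Both are therefore minimum sizes and do not show that IL1RAP changed by less than 2-fold.

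IL1R1, the ligand-binding chain, read 230.4 for vector and 147.3 for S100A7 on probe set 202948_at, a log2 ratio of -0.65. Its other probe set, 215561_s_at, read 48.9 and 50.9, below the floor on both arrays. IL1R1 was thus lower on its 1 measured probe set, within 2-fold.

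IRAK1, the kinase recruited through MYD88, was bright on both arrays, and its probe sets gave nearly the same ratio. Probe set 201587_s_at read 11930 for vector and 7453 for S100A7, a log2 ratio of -0.68. Probe set 1555784_s_at read 2236 and 1294, a log2 ratio of -0.79. Both were lower in the S100A7 array, and both names end in _s_at. IRAK1 had no value once such probe sets were left out.

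Counted by the brightest measured probe set, 1 of 7 measured members was higher in S100A7 cells by 2-fold or more, and 1 was lower by 2-fold or more. Over all 12688 measured genes, these shares were 1.8% higher and 2.25% lower. With 7 genes, 1 in each direction is too few to set against these shares. The median log2 ratio of the members was -0.13, which is the lower bound of IL18, against -0.04 for all measured genes. With the floor at the 30th percentile it was -0.39. Of the members, 3 were above 0 and 4 below, and 45.8% of all measured genes were above 0. The sign of IL1RN was set by the S100A7 array alone reaching the floor, and that of IL18 by the vector array alone. With 7 genes, the split is too small to set against that share. Counted by probe set, 11 of 17 were measured, of which 1 was at least 2-fold higher and 1 lower, against 2.2% and 2.13% of 24438 measured probe sets. Ranked from the highest log2 ratio, IL1A stood 13th among the measured genes. Ranked from the lowest, IL1RAP stood 101st, IRAK1 930th and IL1R1 1037th. IL1B, with 63.2% of genes lower, was near the middle. In order of log2 ratio the members ran IL1A, IL1RN, IL1B, IL18, IL1R1, IRAK1 and IL1RAP, with the places of IL1RN and IL18 resting on lower bounds. Without replicates, only the spread between probe sets of a gene, a pooled standard deviation of 0.36 on the log2 scale, can be set beside these gaps. It comes from the same arrays and counts lower bounds, so it does not measure the spread between cultures. The gap between IL1R1 (-0.65) and IRAK1 (-0.68) was smaller than that standard deviation. Gaps to IL1RN and IL18 are minimum sizes and were not ordered against it.

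The disagreement between the IL1A probe sets was large for these arrays. The range between them was 2.13 on the log2 scale, against a median of 0.41 over the 6465 genes with at least 2 measured probe sets. A range at least as large was found in 24 of those genes (0.371%), IL1A included, and in 3 of the 3423 genes with exactly 2 (0.0876%). The range was 1.05 for IL1RAP, which counts a lower bound, and 9.88% of genes had one as large. The ranges of IL1B (0.12) and IRAK1 (0.11) were below that median, so the probe sets of these genes gave close to the same ratio. Of the 110 genes at least 2-fold higher that had several measured probe sets, 20 were at least 2-fold higher on every one, and 28, IL1A among them, had one at or below a log2 ratio of 0. Of the 112 such genes at least 2-fold lower, 15 were at least 2-fold lower on every one, and IL1RAP was not among these. No value here shows which of the IL1A probe sets follows the transcript.

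**Figure D2:**
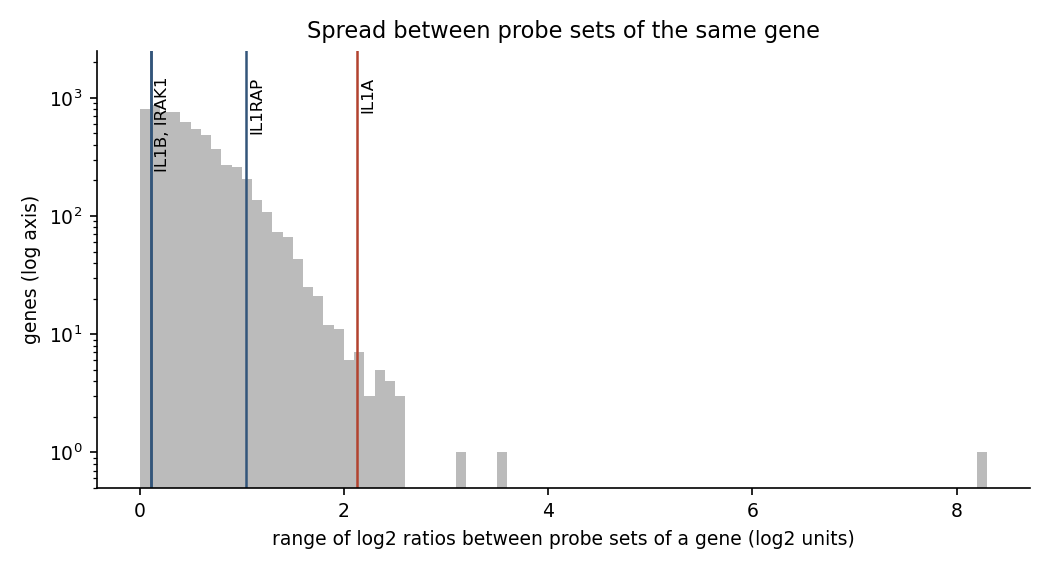
Histogram of the range of log2 ratios between measured probe sets of the same gene, for 6465 genes (count on a log axis), with vertical lines for the members with 2 measured probe sets. IL1A, at 2.13, sits in the thin upper tail, IL1RAP at 1.05, and IL1B (0.12) and IRAK1 (0.11) at the low end.

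**Figure D3:**
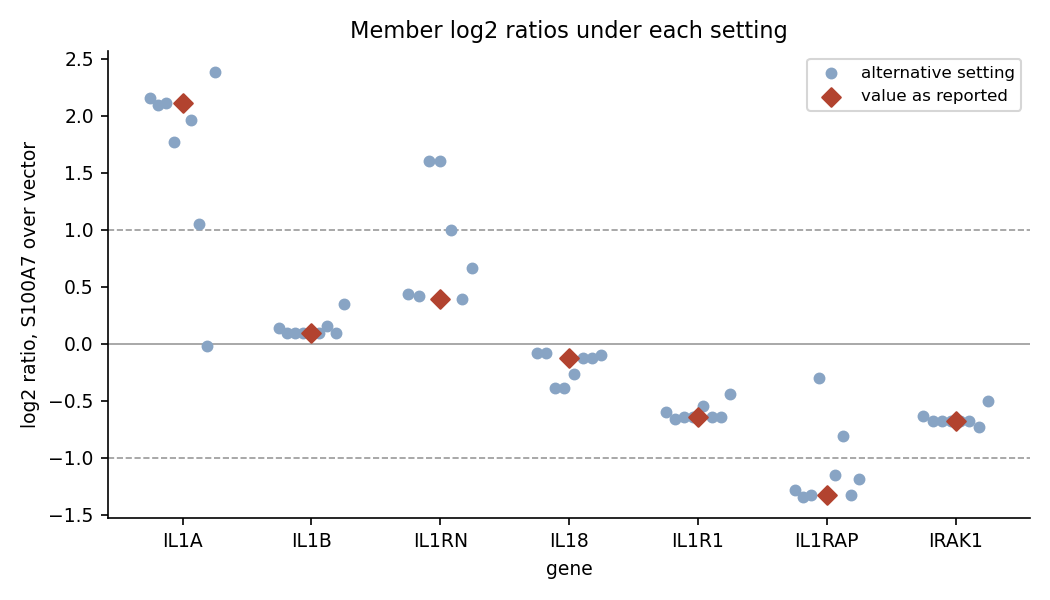
Log2 ratio of S100A7 over vector for each measured member as reported (red diamonds) and under each alternative setting that gave a value (blue points); dashed lines mark 2-fold. IL1A ranged from -0.02 to 2.38, IL1RAP from -1.34 to -0.30 and IL1RN from 0.39 to 1.60, while IL1B, IL1R1, IL18 and IRAK1 stayed on their own side of 0 and within 2-fold.

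The direction of IL1A rested on its _s_at probe set. Without probe sets ending in _x_at or _s_at, IL1A was represented by 208200_at, at -0.020, and 0 members were at least 2-fold higher. The median of its probe sets was 1.05 on the log2 scale, still past 2-fold. Under another scaling of the arrays, by median centring or by quantile normalization, IL1A stayed higher and IL1RAP lower, each past 2-fold, as the plot of settings shows.

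By position, IL1A, IL1B and IL1RN belong with the interleukin-36 genes to a cluster on chromosome 2, and IL1R1 lies in a receptor cluster on the same chromosome. CKAP2L, a mitotic spindle gene beside IL1A, read 2027 for vector and 2014 for S100A7, and IL1B on the other side was level as described. Taking the nearest 2 genes on each side of every member, 13 of 28 neighbours other than members were measured. Of these, 0 were at least 2-fold higher and 0 lower, with log2 ratios from -0.51 to 0.73. The highest was CLDN1, a tight junction gene near IL1RAP, at 74.7 and 124. Over the 40 nearest measured genes the median ratio, on the log2 scale, was -0.27 around IL1A, -0.14 around IL1RAP and -0.18 around IRAK1. With that median subtracted, IL1A was at 2.38, IL1RAP at -1.19 and IRAK1 at -0.50.

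The genes with the pattern most like IL1A, by distance between the log2 intensities of the 2 arrays on its 210118_s_at probe set, were RCSD1, C4BPB and MMP1. RCSD1 read 189 for vector and 924 for S100A7, C4BPB, a chain of a complement inhibitor, 257 and 801, and MMP1, the interstitial collagenase, 291 and 988. Likeness over 2 arrays means only that both intensities are near those of IL1A.

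**Figure D4:**
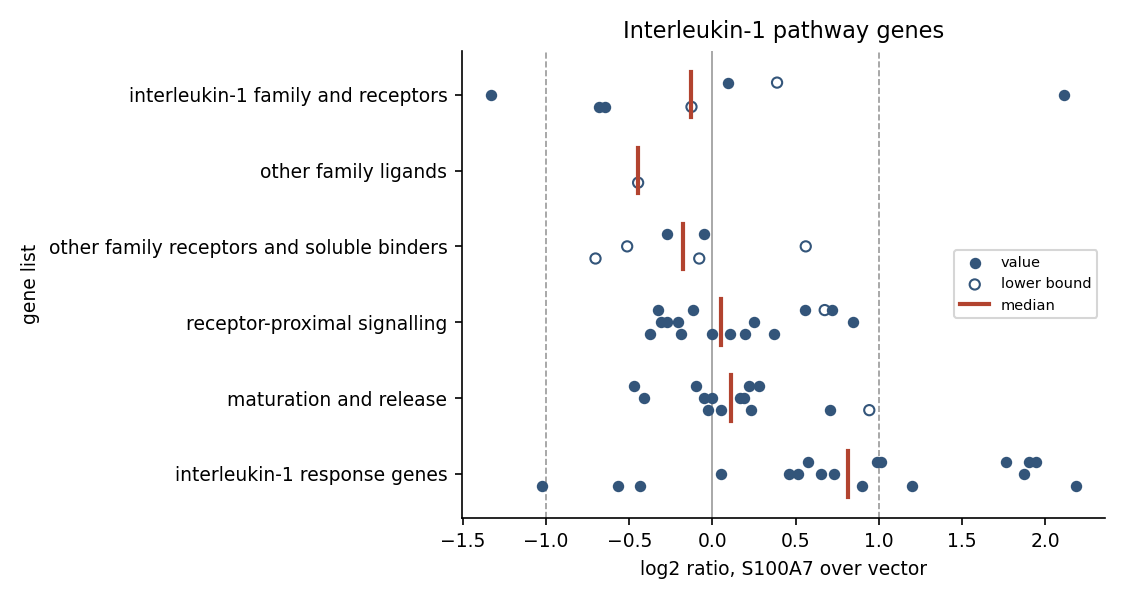
Log2 ratio of S100A7 over vector for the measured genes of each list, as values (filled) or lower bounds (open), with the list median (red bar) and dashed lines at 2-fold. The response genes reach 2.18 with a median of 0.82, and in the other lists outside the members no value or bound reaches 2-fold at this floor; open points could lie farther from 0.

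The rest of the pathway was described from 5 lists of 81 genes, of which 75 had a probe set of their own and 55 were measured. Of the other family ligands, which include the interleukin-36 group, 1 of 6 was measured: IL1F10 read 94.0 for vector and 58.8 for S100A7, at least 1.36-fold lower. IL36A, IL36B, IL36G, IL36RN and IL37 were below the floor on both arrays. With a floor at the 30th percentile, 1 ligand of this list was at least 2-fold higher and 2 were lower. Of all the family ligands, members included, IL1A and IL1B were the ones that reached the 50th percentile floor on both arrays.

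Of 9 other family receptors and soluble binders, 6 were measured, 4 of them as lower bounds, and 0 reached 2-fold at this floor, with a median log2 ratio of -0.17. That count was set by the floor: 2 were at least 2-fold lower with it at the 30th percentile, 1 with a pseudocount of 32 in its place, and 3 lower and 1 higher with no floor, where the median was -0.71. IL18BP, the soluble inhibitor of interleukin-18, read 112 for vector and 68.6 for S100A7, at least 1.63-fold lower. IL1R2, a decoy receptor for interleukin-1, read 98.4 and 16.0, at least 1.43-fold lower. Both were lower in the S100A7 array and below the floor there. The brightest probe set of IL1RL1, the interleukin-33 receptor, read 15.0 and 105, at least 1.48-fold higher. Its other measured probe set was on the opposite side, at least 1.34-fold lower.

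Of 19 receptor-proximal signalling genes, 16 were measured, and 0 reached 2-fold at this floor. The median was 0.05, with 8 above 0 and 8 below, against 45.8% above 0 over all measured genes. With a floor at the 30th percentile or a pseudocount of 32, 1 was at least 2-fold higher. IRAK2, the kinase that sustains the signal after IRAK1, read 230 for vector and 413 for S100A7, 1.79-fold higher. Its other measured probe set was higher by at least 0.11 on the log2 scale. IKBKB, the catalytic kinase that frees NF-kB, read 626 and 1031, 1.65-fold higher, and log2 ratios of its 3 probe sets spanned 0.43 to 0.80. IRAK3, an inhibitory family member, read 21.2 and 113, at least 1.60-fold higher. Against the lower IRAK1, both IRAK2 and IRAK3 were thus higher, while the adaptor MYD88 was nearly level, at 1980 and 1713.

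Of 17 genes for maturation and release, 14 were measured, and 0 reached 2-fold at this floor. The median was 0.11, with 8 of the 14 above 0, against 45.8% over all measured genes. The number at least 2-fold higher was 1 with a floor at the 30th percentile, with a pseudocount of 32 or with chromosomal neighbours subtracted, and 2 with no floor. PYCARD, the inflammasome adaptor ASC, read 19.6 for vector and 137 for S100A7, at least 1.92-fold higher. CASP1, the protease that cuts interleukin-1 beta and interleukin-18, read 160 and 262, 1.63-fold higher. Log2 ratios of its 4 measured probe sets spanned 0.63 to 1.06 at this floor, counting lower bounds at 0.63 and 0.90. CAPNS1, the small subunit of the calpains that cut interleukin-1 alpha, read 12291 and 8851, 1.39-fold lower. NLRP3, the sensor of the best-known inflammasome, was 1.16-fold higher on its brightest probe set and 1.80-fold higher on its other measured one, which read 107 and 193.

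Of 30 genes known to respond to interleukin-1, 18 were measured. Of these, 7 were higher by 2-fold or more and 1 was lower, or 38.9% and 5.56%, against the 1.8% and 2.25% of all genes given above. The median log2 ratio was 0.82. This list shares its best-known genes with those already seen to be high on these arrays, so it is not independent evidence of direction. C3, the central complement protein, read 368 for vector and 1672 for S100A7, 4.54-fold higher. CXCL1, CXCL8, IL11, MMP1, ICAM1 and IL6, in falling order from 3.86-fold to 2.02-fold, were the other 6, and MMP3, a stromelysin, was 2.04-fold lower. MMP3 was just past 2-fold, and 0 response genes were lower by that much with median centring, a floor at the 70th percentile, a pseudocount of 32 or chromosomal neighbours subtracted. The number higher stayed between 5 and 8 under every alternative that kept the 2-fold threshold, with 6 under quantile normalization and 5 without _x_at and _s_at probe sets. By sign, 15 of the 18 were above 0 and 3 below, against 45.8% above 0 over all measured genes. The NF-kB feedback regulators TNFAIP3, NFKBIA and NFKBIZ were higher within 2-fold, by 1.98-fold, 1.58-fold and 1.49-fold on their brightest probe sets. The other probe set of TNFAIP3 was 1.38-fold higher. Lower within 2-fold were LCN2, at 126 for vector and 85.2 for S100A7, and PTGES, with log2 ratios of -0.44 and -0.81. LIF was nearly level, at 1155 and 1197. Of the classical targets, CCL2, CCL20, PTGS2, VCAM1 and SELE were below the floor on both arrays.

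Checks on the samples were few. The S100A7 probe set read 11.99 for vector and 13232 for S100A7, as labelled. VIM and CD44 were bright, as was the keratin KRT18, at 18785 for vector and 15670 for S100A7. ESR1, PGR and CDH1 were below the floor on both arrays. Of 11 leukocyte and macrophage markers, 10 had a probe set of their own, 4 were measured and 0 were past 2-fold. CD68 had no such probe set. PTPRC, CD14, LYZ, TYROBP, CD163 and AIF1 did not reach the floor in either group. FCER1G (82.9 for vector and 84.3 for S100A7) and CSF1R (128 and 164) reached it in both, and ITGAM (127 and 48.4) in vector alone. LAPTM5 read 2563 for vector and 4048 for S100A7 on its brightest probe set, 1.58-fold higher. Its other probe set was 1.68-fold higher. Most of the summed intensity of this list, 4693 for vector and 7222 for S100A7, came from LAPTM5. Of 8 keratinocyte markers, 7 had a probe set of their own, and TP63 had none. Of these, 3 were measured, 0 past 2-fold, with list sums of 13128 and 10100. Most of each sum came from KRT10, which was bright, at 5113 for vector and 4156 for S100A7 on its brightest probe set. KRT1 and SPRR1A were close to the floor, and KRT5, KRT14, IVL and LORICRIN were below it.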

How the data were processed

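Per the submitters' processing notes the authors made the deposited intensity values with MAS5, in a version not given in the sources used here, like the scaling target and detection calls. Values are linear, 1 per probe set. Their 2% trimmed means were 500.1 for both arrays, so no further scaling was applied. Probe sets were named by the platform annotation, which gave 41091 of them 1 gene, 1801 several and 11721 none, beside 62 controls; 41037 were matched by Entrez identifier to current symbols. Probe sets with several genes or none were left out. Probe sets counted as measured if they reached the floor (each array's 50th percentile without controls) on either array, and lower values were raised to it. The brightest measured probe set stood for a gene. This left 24438 probe sets and 12688 genes, counted at 2-fold or more on the log2 ratio; nothing was tested, and the number of arrays limits the precision.

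The members and lists were chosen with earlier results of these data known. Every member was named with all its probe sets; from each pathway list, every gene past 2-fold was named, or the 3 with the largest ratios where fewer than 3 were, and any other gene named was chosen after its values were seen. Alternatives covered array scaling, the floor, a pseudocount of 32, the choice of probe sets, the threshold and chromosomal neighbours. Neighbours use gene order on GRCh38.p14. Promoter sequences are those of RefSeq. Counting was tested on simulated arrays in which all probe sets of a changed gene changed by the same fold. That test does not cover genes whose probe sets disagree, as those of IL1A do. Python 3.11.15, pandas 2.3.3 and numpy 2.4.6 were used.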

Additional observations from a re-analysis of the deposited data

How the results depend on the processing

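The number of arrays limits every value: the spread between cultures or between stable lines was not measured, and intensities near the floor have no order. Members at least 2-fold higher numbered 2 with a floor at the 30th percentile (IL1A and IL1RN), 3 with no floor (IL33 joined, from intensities far below the floor) and 0 without _x_at and _s_at probe sets. Members at least 2-fold lower numbered 0 with a floor at the 70th percentile, 0 with the median over probe sets, 0 at a 3-fold threshold and 3 at 1.5-fold (IL1RAP, IL1R1 and IRAK1). With the floor at the 70th percentile and with the median, the IL1RAP value was a minimum size. The log2 ratio of IL1A was 1.05 with the median over probe sets and -0.020, on the other side of 0, without the suffixes, where its 1 remaining probe set was 208200_at. Over all genes, 228 were higher and 286 lower as reported. These became 679 and 979 when the floor was the 30th percentile, 99 and 88 when it was the 70th, 1911 and 2387 with no floor, 1030 and 1275 at 1.5-fold, and 47 and 55 at 3-fold. Under these alternatives the median of the members moved by less than 0.36, and no member other than IL1A changed side of 0. With a floor at the 70th percentile the other family ligands gave no value, since none was measured. No paired analysis was possible because each group had 1 array.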
